A study of Chenopodium quinoa with 15 samples.

Results

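Heat shock proteins and heat stress factors were analysed in the quinoa variety NL-6 as the genes whose deposited protein match (the NR text, the title of the best match in another species) contains the words heat shock or heat stress transcription factor. This rule gave 126 of 58522 genes, with 23 small heat shock proteins, 72 HSP70 genes, 15 HSP90 genes, 15 heat stress factors and 1 further gene titled heat shock protein binding protein. RNA was sequenced from leaves of 14 day old seedlings that received 400 mM NaCl over 8 h and from untreated leaves of the same age, and from roots, stamens and pistils, with 3 libraries in each of the 5 groups. Roots came from dark-grown seedlings given as 2 days old in the sample labels and as 3 days old in the series text, and the flower organs, stamens and pistils, were taken at opening from plants about 7 weeks old. No group carried a transgene or a mutation, and each library was a pool of 4 seedlings for leaf, 8 roots, more than 80 stamens or more than 30 pistils. The tissues therefore differ in age and growth conditions as well as in organ, and these cannot be told apart. The study calls the replicates of a group independent. The sources do not say whether these replicates were grown separately, so p-values measure the spread between these pools.

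Heat shock proteins are chaperones, which keep other proteins folded. Small heat shock proteins hold unfolding proteins without using ATP. HSP70 proteins use ATP and DnaJ partners to fold or move their clients, and HSP90 proteins act late in the folding of selected clients, many of them signalling proteins. Heat stress factors are the transcription factors that switch such genes on, and plants have the classes A, B and C. In Arabidopsis, class A members are activators and most class B members lack the activator motif. Besides heat, some of these genes are known to respond to drought and salt, and small heat shock proteins are also known from maturing pollen and seeds.

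Total counted reads ranged from 14392481 to 15092661 in NaCl leaf, 15544918 to 17019602 in untreated leaf, 14031146 to 16603269 in root, 12499775 to 14630502 in stamen and 12696715 to 13886363 in pistil. Levels are CPM, the reads of a gene per 1e6 reads of the library total after TMM scaling, which was done once for the 6 leaf libraries and once for the 12 untreated libraries, so untreated leaf has a CPM value on each scale. The labelled tissues carried their markers. A list of 52 chlorophyll-binding and photosystem genes summed to 51551 to 59582 CPM in untreated leaf and to 22.9 to 24.0 CPM in root. A list of 21 genes titled with pollen summed to 29736 to 31383 CPM in stamen. It summed to 902 to 1226 CPM in pistil and to 870 to 1187 CPM in root. Fewer cells of a type and less RNA per cell cannot be told apart in such bulk samples. Of the 126 genes, 32 had no read in any of the 15 libraries, and 30 of these were HSP70 genes.

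To understand how salt exposure changed these genes, NaCl leaf was compared with untreated leaf. Salt moved the HSP90 genes in opposite directions, with a fall of the 2 HSP90-1 genes and a rise of a pair of HSP83 genes on chromosome 6. It lowered the most abundant HSP70 gene, which is titled as a chloroplast stromal protein, and raised several smaller HSP70 genes, chloroplast small heat shock proteins and 3 class B or C factors. These 3 were of 11 factors tested, a share near that of all genes that rose. The call of CqNL-6_033852 among them was lost in 4 of 6 fits that left out a library. Of the 126 genes, 40 passed the read filter and were tested, and at an adjusted p under 0.05 in edgeR's quasi-likelihood test 14 rose, 9 fell and 17 did not pass. Over all 29201 genes tested, 24% rose and 22.8% fell, so the share of members that fell was near that of all genes and the share that rose was somewhat above it, and this difference was not tested. The libraries of the 2 groups did not overlap for 26 of the 40 tested members, against 58.6% of all genes tested. The median log2 fold change over the 40 was 0.29, and that over all genes was 0.04 with TMM and 0.29 when scaled by total library size.

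**Figure D1:**
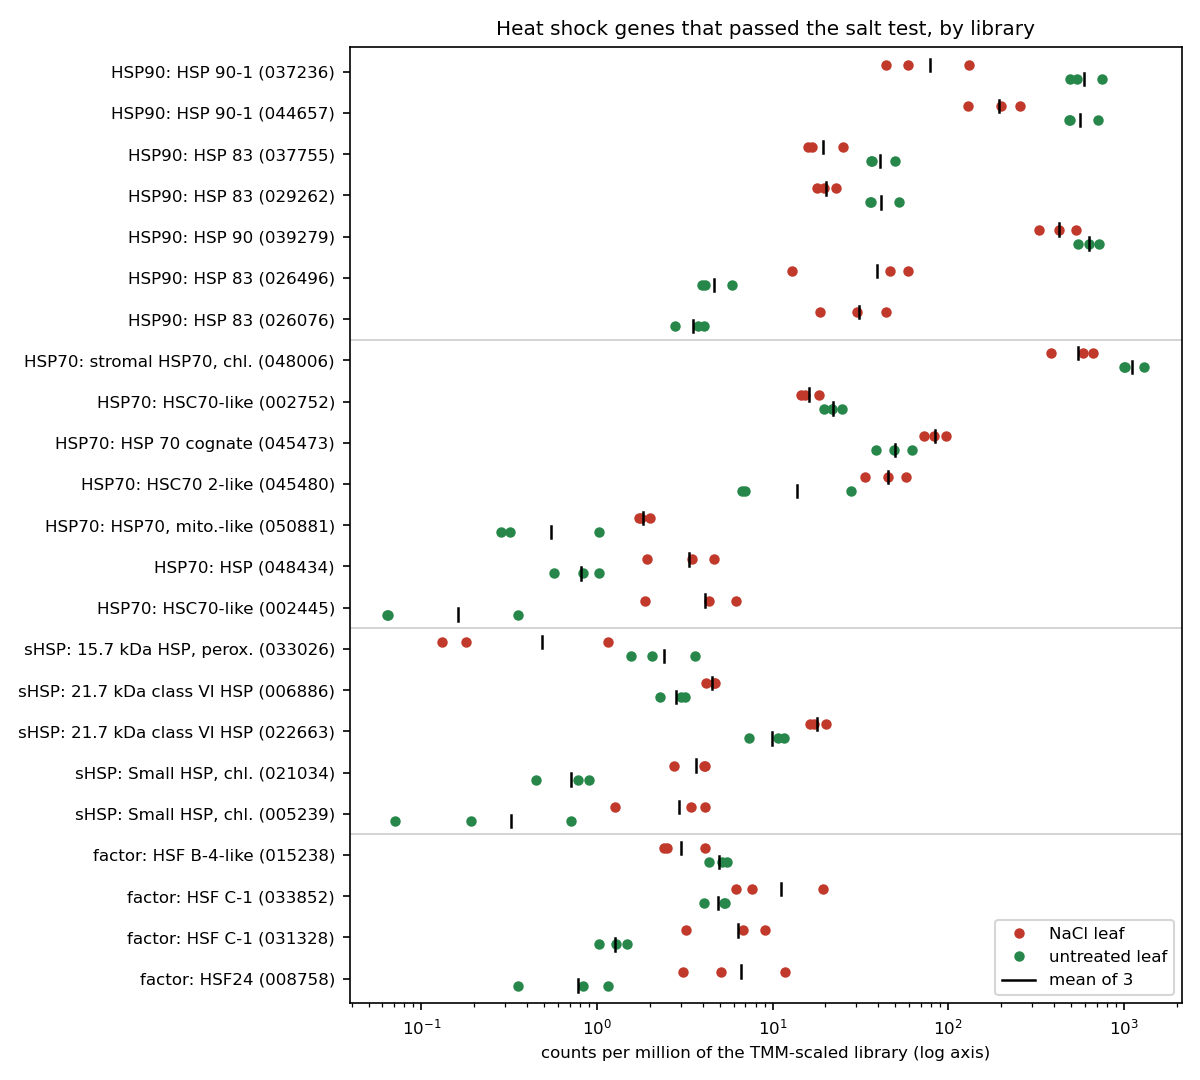
CPM (reads per 1e6 of the TMM-scaled library total) (log axis) of the 23 heat shock genes that passed the salt test, with 1 row for each gene, labelled by class, shortened title and the last digits of its identifier. Red points are the 3 NaCl leaf libraries, green points below them the 3 untreated leaf libraries and black bars the means. The 2 HSP90-1 genes stand lower in NaCl leaf and the HSP83 genes CqNL-6_026496 and CqNL-6_026076 higher, with no overlap of the groups in any row.

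Of the 15 HSP90 genes 10 were tested, of which 2 rose and 5 fell, with a median log2 fold change of -0.44. Over all genes tested, 24% rose and 22.8% fell. The HSP90-1 gene CqNL-6_037236 (chromosome 7, 13467733 to 13475558 of the NL-6 genome) had 44.4, 59.2 and 131 CPM in NaCl leaf, against 754, 539 and 495 CPM in untreated leaf. Every NaCl library stood far below every untreated one. The log2 fold change was -2.93 ± 0.37 (SE, n = 3 each, adjusted p = 0.000325 in edgeR), which is 7.61-fold lower. Its counterpart of the same title on chromosome 1, CqNL-6_044657 (74211870 to 74220032), had 130, 200 and 258 CPM in NaCl leaf, against 712, 493 and 487 CPM in untreated leaf. These groups did not overlap either, and the log2 fold change was -1.53 ± 0.25 (adjusted p = 0.00107).

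Both genes carry the KEGG term K09487, given to HSP90 proteins of the endoplasmic reticulum type, and so do 3 genes titled HSP83. Of these, CqNL-6_037755 (chromosome 17, 49735694 to 49743369) had 15.9, 16.8 and 25.1 CPM in NaCl leaf, against 49.5, 37.0 and 36.3 CPM in untreated leaf. It fell by 1.09 on the log2 scale (adjusted p = 0.002), and CqNL-6_029262 (chromosome 11, 65874358 to 65880506) fell by 1.04 (adjusted p = 0.00136). The remaining one, CqNL-6_054492, had a log2 fold change of 0.34 (adjusted p = 0.149), and it passed as higher by total library size (0.59, adjusted p = 0.0195). In all, 4 of the 5 genes with this term fell. Their summed level was 215 to 445 CPM in NaCl leaf and 1059 to 1574 CPM in untreated leaf. Genes titled endoplasmin homolog, the name of the HSP90 of the endoplasmic reticulum, are not among the 126 by their titles, and both rose. CqNL-6_026627 had 294, 148 and 300.3 CPM in NaCl leaf, against 73.4, 62.1 and 69.6 CPM in untreated leaf (log2 fold change 1.85 ± 0.25, adjusted p = 0.000389). CqNL-6_039604 had 151, 85.8 and 172 CPM in NaCl leaf, against 55.6, 56.6 and 60.8 CPM in untreated leaf (1.24 ± 0.22, adjusted p = 0.00185). The fall therefore holds for the genes of this term among the 126, and the genes titled for this compartment went the other way. The term is that of the deposited annotation, and the compartment of the proteins that carry it was not tested.

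The other 10 HSP90 genes carry the term K04079, given to the cytosolic type. CqNL-6_026076 (chromosome 6, 12230663 to 12234361), titled HSP83, had 44.2, 18.7 and 30.3 CPM in NaCl leaf, against 4.04, 3.78 and 2.77 CPM in untreated leaf. CqNL-6_026496 (chromosome 6, 16335263 to 16337969), of the same title, had 58.7, 12.9 and 46.7 CPM in NaCl leaf, against 5.89, 3.97 and 4.12 CPM in untreated leaf. In both genes NaCl replicate 2 was the lowest of the treated libraries and still above every untreated one. The log2 fold changes were 3.14 ± 0.31 (adjusted p = 0.000109) and 3.08 ± 0.49 (adjusted p = 0.000936). By total library size 3 of the 15 HSP90 genes rose, these and CqNL-6_054492.

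The abundant cytosolic-type genes moved less. CqNL-6_006426 (chromosome 4, 661755 to 665183) was the most read HSP90 gene over the 6 leaf libraries. It had 461, 587 and 615 CPM in NaCl leaf, against 656, 575 and 508 CPM in untreated leaf, and the groups overlapped (log2 fold change -0.07 ± 0.15, adjusted p = 0.743). CqNL-6_039279 (chromosome 10, 756458 to 759898), with the same title and length, had 329, 429 and 532 CPM in NaCl leaf, against 720, 629 and 550 CPM in untreated leaf. It fell by 0.56 on the log2 scale (adjusted p = 0.0299), and without any 1 leaf library its adjusted p reached up to 0.11, missing the threshold without NaCl leaf replicate 1 or 2 or untreated leaf replicate 1 or 2. By total library size it did not pass either (-0.31, adjusted p = 0.149), which leaves 4 HSP90 fallers. Summed over the class, HSP90 reached 1109 to 1670 CPM in NaCl leaf and 2126 to 2962 CPM in untreated leaf. The cytosolic-type genes alone overlapped, at 894 to 1225 CPM in NaCl leaf and 1066 to 1388 CPM in untreated leaf. The lower class sum therefore came mostly from the genes with the term K09487.

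Among the 72 HSP70 genes 10 were tested, of which 5 rose and 2 fell, with a median log2 fold change of 0.50. The stromal HSP70 gene CqNL-6_048006 (chromosome 1, 31523453 to 31527583), whose kind takes part in protein import into chloroplasts, had 387, 583 and 669 CPM in NaCl leaf, against 1306, 1005 and 1019 CPM in untreated leaf. All 3 NaCl libraries were lower, and the log2 fold change was -1.02 ± 0.20 (adjusted p = 0.00286). The 52 chlorophyll-binding and photosystem genes moved the same way on this scale, with 34940 to 40853 CPM in NaCl leaf and 47777 to 54423 CPM in untreated leaf, and their part in this result was not tested. The second faller, CqNL-6_002752, a heat shock cognate 70 kDa gene, fell by 0.45 (adjusted p = 0.0329). By total library size it did not pass (-0.20, adjusted p = 0.275), and its adjusted p was up to 0.123 with 1 library left out, missing the threshold without NaCl leaf replicate 1 or 2 or untreated leaf replicate 2 or 3.

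A neighbouring pair on chromosome 18 rose. CqNL-6_045473 (34539821 to 34542555), titled heat shock protein 70 cognate, had 72.5, 83.3 and 97.5 CPM in NaCl leaf, against 61.9, 49.4 and 38.8 CPM in untreated leaf (log2 fold change 0.76 ± 0.18, adjusted p = 0.00781). CqNL-6_045480 (34614449 to 34617201), titled heat shock cognate 70 kDa protein 2, had 45.1, 33.5 and 57.3 CPM in NaCl leaf, against 27.9, 6.92 and 6.69 CPM in untreated leaf. Untreated replicate 1 was about 4 times the other untreated libraries and still below all NaCl libraries. The log2 fold change was 1.72 ± 0.49 (adjusted p = 0.017), and it was 2.73 without that library but did not pass without untreated replicate 2 (1.39, adjusted p = 0.070) or untreated replicate 3 (1.38, adjusted p = 0.0664).

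The other 3 HSP70 risers were below 5 CPM in untreated leaf and were named after their values were seen. CqNL-6_048434 had 4.62, 1.93 and 3.47 CPM in NaCl leaf, against 0.568, 0.833 and 1.03 CPM in untreated leaf (log2 fold change 2.03 ± 0.40, adjusted p = 0.00293). The mitochondrial gene CqNL-6_050881 had 1.74, 1.99 and 1.77 CPM in NaCl leaf, against 0.284, 0.320 and 1.03 CPM in untreated leaf (1.73 ± 0.47, adjusted p = 0.0145). All NaCl libraries were the higher ones, although the call of the mitochondrial gene was lost without untreated leaf replicate 1 or 2 (adjusted p up to 0.0679). The remaining riser, CqNL-6_002445, is described with its array.

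Per length, the make-up of the HSP70 class differed between the treatments. In the deposited FPKM values the stromal gene CqNL-6_048006 held 33.8%, 42.8% and 41.6% of the summed HSP70 FPKM in the NaCl leaf libraries, against 67.3%, 65.8% and 68.3% in the untreated ones. CqNL-6_045473, whose deposited length is only 309 bases, held 39.2% on average in NaCl leaf and 19.1% in untreated leaf. The HSP70-15 gene CqNL-6_007809, of the HSP110 type that exchanges the nucleotide of HSP70, was named after its values were seen. Its level was 137, 152 and 164 CPM in NaCl leaf, against 162, 142 and 144 CPM in untreated leaf, and the groups overlapped (log2 fold change 0.01 ± 0.12, adjusted p = 0.934).

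Of the 23 small heat shock proteins 9 were tested, with 4 higher and 1 lower and a median log2 fold change of 0.68. The 21.7 kDa class VI gene CqNL-6_022663 (chromosome 12, 4019967 to 4021131) had 16.2, 17.3 and 20.1 CPM in NaCl leaf, against 10.7, 7.37 and 11.6 CPM in untreated leaf (log2 fold change 0.85 ± 0.19, adjusted p = 0.00488). Its groups did not overlap. The most read gene of the class, the 18.2 kDa class I gene CqNL-6_010027 (chromosome 18, 3623125 to 3623616), had 38.7, 33.9 and 52.9 CPM in NaCl leaf, against 33.7, 43.7 and 51.8 CPM in untreated leaf. These values overlapped throughout (log2 fold change -0.04 ± 0.20, adjusted p = 0.875).

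Lower in level, and named after their values were seen, were 2 genes titled as chloroplast small heat shock proteins. CqNL-6_005239 had 4.14, 1.27 and 3.41 CPM in NaCl leaf, against 0.0710, 0.192 and 0.707 CPM in untreated leaf (log2 fold change 3.13 ± 0.67, adjusted p = 0.00435). CqNL-6_021034 had 4.08, 4.11 and 2.75 CPM in NaCl leaf, against 0.781, 0.448 and 0.900 CPM in untreated leaf (2.35 ± 0.34, adjusted p = 0.000644). Neither pair of groups overlapped. The fourth riser was the other 21.7 kDa class VI gene, CqNL-6_006886 (log2 fold change 0.68 ± 0.22, adjusted p = 0.0296), which lost its call without NaCl leaf replicate 2 or 3 or untreated leaf replicate 1 or 2 (adjusted p up to 0.099). The peroxisomal 15.7 kDa gene CqNL-6_033026 was the only member of the class that fell, to 0.180, 1.15 and 0.131 CPM in NaCl leaf, against 1.56, 2.05 and 3.60 CPM in untreated leaf (log2 fold change -2.28 ± 0.67, adjusted p = 0.0192). It was named after its values were seen, and without untreated replicate 3 its adjusted p was 0.0929.

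Of the 15 heat stress factors 11 were tested, with 3 higher and 1 lower and a median log2 fold change of 0.44. The share of factors that rose was near the 24% over all genes tested, of which 22.8% fell. HSF24, a class B factor named in tomato (CqNL-6_008758, chromosome 7, 3411703 to 3414354), had 11.8, 3.08 and 5.11 CPM in NaCl leaf, against 0.355, 0.833 and 1.16 CPM in untreated leaf. NaCl replicate 1 was the highest and all 3 treated libraries were above the untreated ones. The log2 fold change was 3.06 ± 0.56 (adjusted p = 0.00193), which is 8.35-fold higher.

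Both class C-1 factors, whose class is the least studied, rose as well. CqNL-6_031328 (chromosome 14, 3947855 to 3950228) had 8.99, 6.77 and 3.21 CPM in NaCl leaf, against 1.49, 1.02 and 1.29 CPM in untreated leaf (log2 fold change 2.32 ± 0.39, adjusted p = 0.00124). CqNL-6_033852 (chromosome 8, 3470070 to 3472561) had 19.5, 7.67 and 6.16 CPM in NaCl leaf, against 5.32, 5.32 and 4.05 CPM in untreated leaf. Its log2 fold change of 1.18 ± 0.40 (adjusted p = 0.0339) rested largely on NaCl replicate 1, without which it was 0.49 (adjusted p = 0.106). The call was also lost without untreated replicate 1 (1.24, adjusted p = 0.0795), 2 (1.24, adjusted p = 0.0846) or 3 (1.06, adjusted p = 0.119).

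The class A factors did not pass. The A-3 gene CqNL-6_041006 (chromosome 3, 67151309 to 67154275), whose Arabidopsis counterpart acts downstream of the drought factor DREB2A, was the most read factor over the 6 leaf libraries. It had 17.1, 25.3 and 16.2 CPM in NaCl leaf, against 14.4, 13.7 and 15.2 CPM in untreated leaf. The groups did not overlap, but the log2 fold change of 0.44 ± 0.18 did not pass (adjusted p = 0.0766), while it passed with total library size (0.69, adjusted p = 0.013) and without NaCl leaf replicate 3 (0.53, adjusted p = 0.0431). The A-1e gene CqNL-6_040725, named after its values were seen, had a log2 fold change of 0.01 (adjusted p = 0.977). A-1 factors are the main activators of the heat response in Arabidopsis and tomato. The 1 factor that fell was the B-4 gene CqNL-6_015238, named after its values were seen, with 2.52, 2.42 and 4.13 CPM in NaCl leaf, against 4.33, 5.12 and 5.47 CPM in untreated leaf. Its log2 fold change was -0.72 ± 0.26 (adjusted p = 0.0444), and the call held only without NaCl leaf replicate 3 (adjusted p up to 0.131 otherwise). It did not pass by total library size either (-0.48, adjusted p = 0.143).

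Other chaperones, taken by words in their titles and holding none of the 126 genes, were read in the same test. All 9 tested chaperonins of 10 fell, against 22.8% of all genes tested, with a median log2 fold change of -1.04. Of them, the chloroplast 20 kDa chaperonin CqNL-6_047848 had the smallest p, at 96.2, 112 and 115 CPM in NaCl leaf, against 308, 236 and 248 CPM in untreated leaf. Of 17 genes found by words for endoplasmic reticulum chaperones, 11 were tested. Of these 8 rose and 2 fell, against 24% and 22.8% of all genes tested. The luminal-binding protein CqNL-6_036824, an HSP70 of the endoplasmic reticulum, had 104, 79.2 and 101 CPM in NaCl leaf, against 31.3, 29.8 and 33.2 CPM in untreated leaf. The fallers of that list were both titled protein disulfide-isomerase LQY1, which is a chloroplast protein in Arabidopsis. Of the 8 risers, CqNL-6_018058, is titled protein disulfide-isomerase SCO2, also a chloroplast protein there, and had 40.0, 47.5 and 38.1 CPM in NaCl leaf, against 24.0, 28.9 and 30.2 CPM in untreated leaf.

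DnaJ partners of HSP70 went both ways, with 10 higher and 9 lower of 38 tested. These shares were near those over all genes tested, of which 24% rose and 22.8% fell. The DnaJ homolog ANJ1 gene CqNL-6_019051 had 137, 99.7 and 127 CPM in NaCl leaf, against 42.2, 46.3 and 43.5 CPM in untreated leaf. The DnaJ A2 gene CqNL-6_007673 had 23.6, 27.3 and 29.0 CPM in NaCl leaf, against 54.9, 48.3 and 42.1 CPM in untreated leaf. Both tested Clp ATPases, titled ClpC, fell. Of 15 partners and known factor targets 8 were tested, with 3 higher and 2 lower. The 3 higher were galactinol synthases, which are known heat stress factor targets in Arabidopsis, and had at most 5.90 CPM in any leaf library. Of the 2 lower, the FKBP65-like gene CqNL-6_035736 had 25.5, 23.5 and 27.9 CPM in NaCl leaf, against 57.8, 50.9 and 55.9 CPM in untreated leaf. Its log2 fold change was -1.10 (adjusted p = 0.000163 in edgeR). The other was CqNL-6_028519, titled BAG family molecular chaperone regulator 7 (-0.54, adjusted p = 0.0365). The 1 tested crystallin-type gene did not pass.

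To compare the tissues, a tissue was taken as highest for a gene where the level exceeded that in each of the other 3 at an adjusted p under 0.05 and a log2 fold change of at least 1. Each class had its own pattern. Summed HSP90 and factor levels were low in stamen, where 1 class I small heat shock protein was high. Stamen was highest for 5 of 20 tested HSP70 genes, near the 20% of all genes tested. Root was highest for 6 of 14 tested factors, against 10.4% of all genes tested. Of the 126 genes 60 passed the read filter. Leaf was highest for 4 of them, root for 13, stamen for 10 and pistil for 8, and no tissue for 25. Over all 35954 genes tested leaf took 11.1%, root 10.4%, stamen 20% and pistil 6.03%. The count for pistil was 5 without pistil replicate 2.

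**Figure D2:**
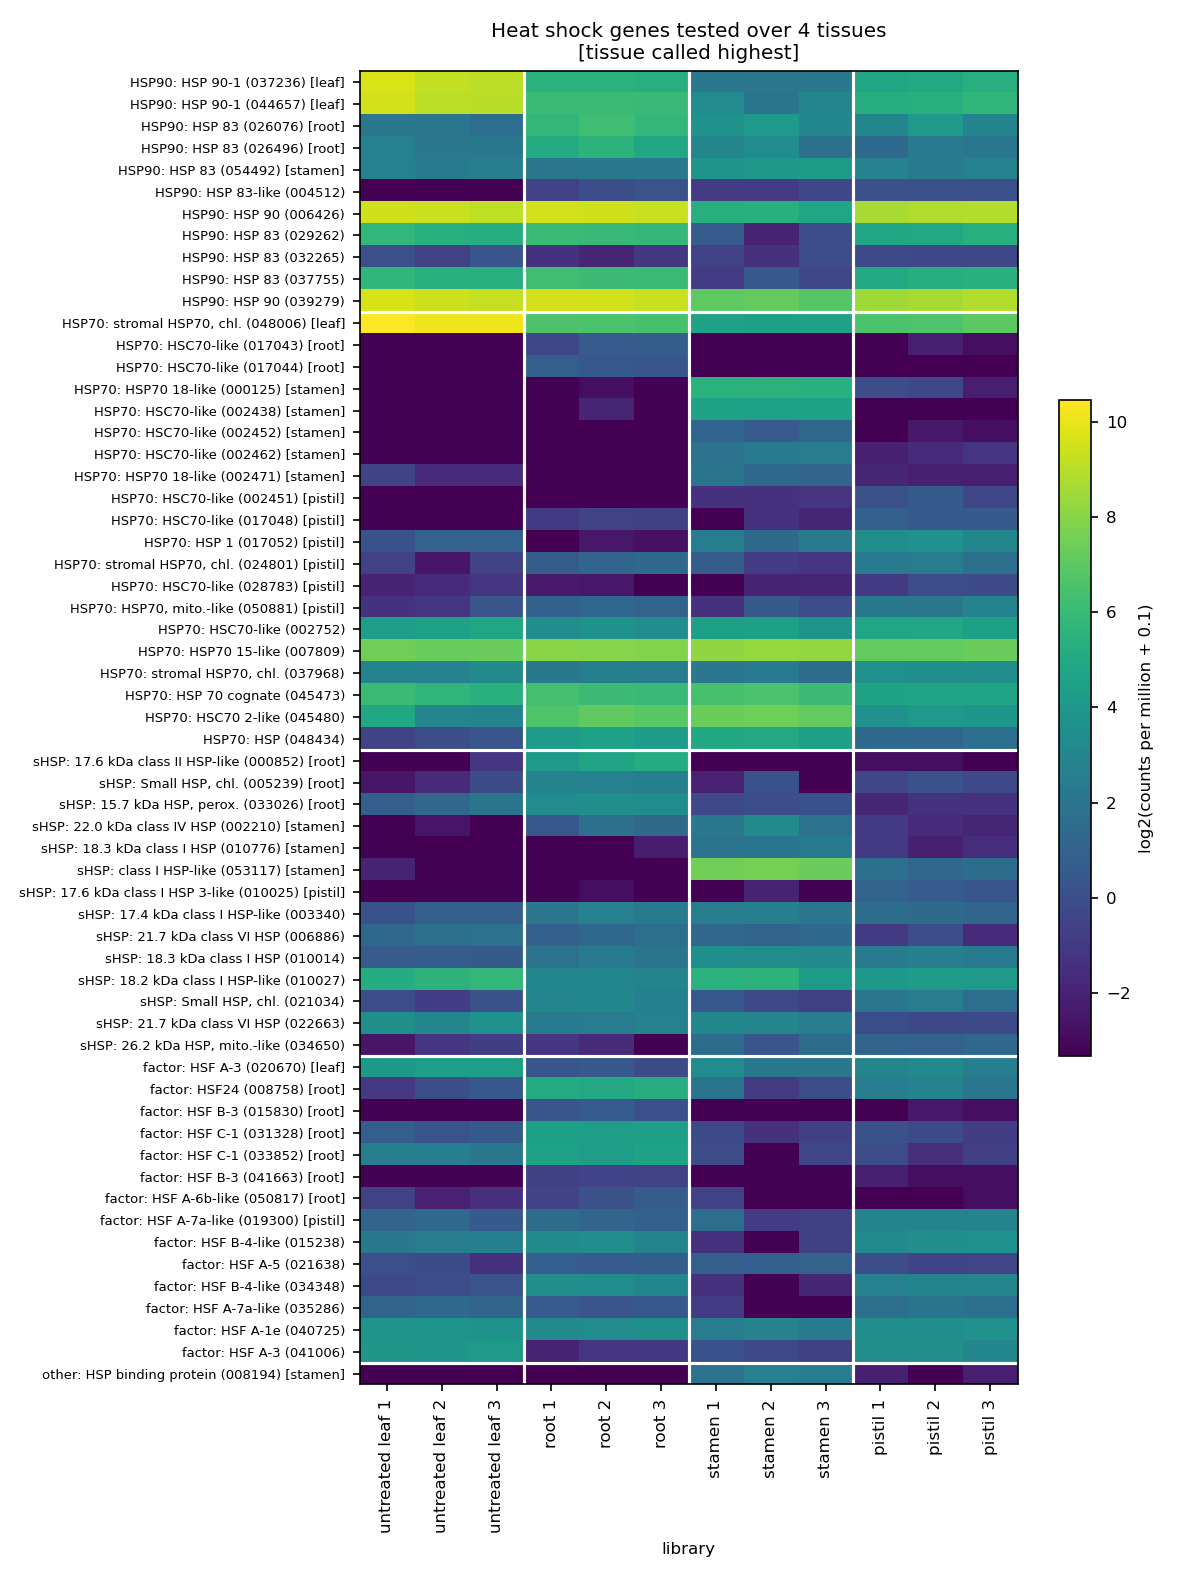
Levels of the 60 tested heat shock genes, as log2 of CPM plus 0.1 (color), with 1 row for each gene grouped by class and 1 column for each of 12 libraries of untreated leaf, root, stamen and pistil. The tissue called highest stands in brackets, and 6 of the 11 HSP90 genes at the top have their lowest mean in stamen, while the class I small heat shock protein CqNL-6_053117 is brightest there.

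The scaling matters here. TMM factors were 0.477 to 0.494 for stamen and 1.73 to 1.78 for pistil. For stamen over pistil, the median log2 fold change of all genes was -0.19 with TMM and -2.02 by total library size, and for leaf over pistil it was -0.14 and -1.20. The pair of values was -0.02 and -0.76 for leaf over root, 0.19 and 1.71 for root over stamen, 0.06 and 0.85 for leaf over stamen, and -0.16 and -0.48 for root over pistil. Class sums are therefore given on both scales. Folds given below as at least, and pistil levels given as a percentage of stamen, are on the TMM scale alone. By these shifts, folds of stamen over another tissue would be smaller by total library size, and those of root over stamen larger. The bounds therefore hold for the TMM scale only.

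Summed HSP90 reached 182 to 239 CPM in stamen, against 2327 to 3196 CPM in leaf, 1600 to 1855 CPM in root and 927 to 1135 CPM in pistil. Stamen was also the lowest by total library size, with 86.7 to 118 CPM against 1623 to 1955 CPM in pistil. Leaf stood above root on the TMM scale, and the 2 overlapped by total library size, at 1942 to 2685 CPM in leaf and 2182 to 2625 CPM in root. Summed factors reached 113 to 122 CPM in root and 14.9 to 28.4 CPM in stamen, and root was the highest and stamen the lowest on both scales. Summed small heat shock proteins reached 214 to 284 CPM in stamen, above root at 68.6 to 88.9 CPM, but by total library size stamen (102 to 140 CPM) overlapped root (97.1 to 122 CPM). For HSP70, leaf was highest on both scales, whereas stamen stood above pistil with TMM (670 to 742 against 341 to 385 CPM) and below it by total library size (320 to 366 against 597 to 663 CPM). The HSP70 sum in leaf came mostly from the stromal gene CqNL-6_048006, which held 67.1% of HSP70 FPKM there on average. Of 20 tested HSP70 genes, 11 had their lowest mean in leaf, so the sum does not describe most members.

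**Figure D3:**
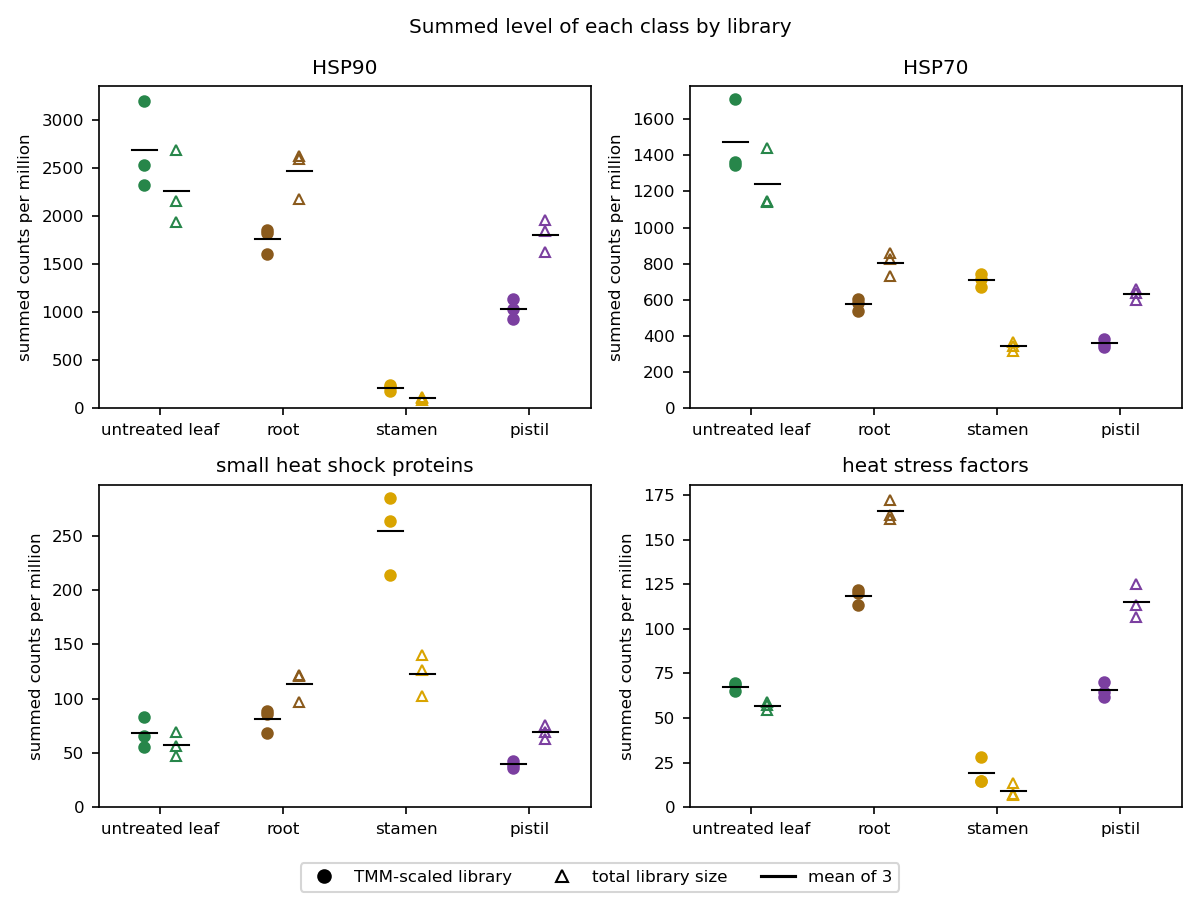
Summed CPM of each class in every untreated library, by tissue, with filled circles for TMM scaling, open triangles for total library size and bars for the means of 3. HSP90 (182 to 239 CPM with TMM) and the factors (14.9 to 28.4 CPM) are lowest in stamen on both scales, and HSP70 changes its order between stamen and pistil with the scale.

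Among HSP90 genes, 8 of 11 tested were higher in root than in stamen, against 43.2% of all genes, and the median log2 fold change of root over stamen was 2.49. The mean level was lowest in stamen for 6 of the 11, or 54.5%, against 37.3% of all genes. The HSP90-1 gene CqNL-6_037236 had 814, 588 and 542 CPM in leaf, against 42.0 to 46.4 CPM in root, 4.36 to 4.42 CPM in stamen and 27.7 to 40.1 CPM in pistil. Against the nearest tissue the log2 fold change was 3.87 (adjusted p = 3.06e-13). CqNL-6_044657 had 769, 537 and 533 CPM in leaf, against 63.0 to 67.8 CPM in root, 3.96 to 10.1 CPM in stamen and 38.7 to 54.0 CPM in pistil (smallest log2 fold change 3.22, adjusted p = 7.82e-11). No leaf library of these genes came near another tissue.

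The HSP83 genes that salt raised in leaf were highest in root. CqNL-6_026076 had 56.8, 76.2 and 55.4 CPM in root, against 3.03 to 4.36 CPM in leaf, 8.22 to 16.9 CPM in stamen and 7.48 to 16.7 CPM in pistil (smallest log2 fold change 2.30, adjusted p = 3.79e-07). CqNL-6_026496 had 36.0, 48.4 and 31.1 CPM in root, against at most 10.4 CPM in any other library (smallest log2 fold change 2.40, adjusted p = 3.1e-07). The salt and tissue comparisons share the untreated leaf libraries, so a low value there enters both.

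HSP83 gene CqNL-6_054492 (chromosome 10, 38595690 to 38598110) was the 1 HSP90 gene highest in stamen, with 13.7, 15.98 and 18.5 CPM there, against 5.24 to 6.58 CPM in leaf, 4.08 to 4.57 CPM in root and 5.26 to 6.79 CPM in pistil (smallest log2 fold change 1.37, adjusted p = 5.4e-07). By total library size the smallest log2 fold change was -0.49 (adjusted p = 0.0772), so this call depends on the scaling. The abundant pair CqNL-6_039279 and CqNL-6_006426 was low in stamen, at 109 to 142 CPM and 27.9 to 43.4 CPM. In leaf and root each had at least 557 CPM in every library, and in pistil they had 367 to 477 CPM. Leaf and root did not differ past the threshold for either gene (log2 fold change -0.04, adjusted p = 0.81, and -0.15, adjusted p = 0.407).

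Of 20 tested HSP70 genes, leaf was highest for 1, root for 2, stamen for 5 and pistil for 6. Over all genes tested, stamen took 20% and pistil 6.03%, so the count for stamen was near the share of all genes. The stromal gene CqNL-6_048006 had 1409, 1096 and 1115 CPM in leaf, against 86.4 to 98.4 CPM in root, 22.4 to 24.4 CPM in stamen and 95.5 to 127 CPM in pistil (smallest log2 fold change 3.48, adjusted p = 4.65e-13). The HSP70-18 gene CqNL-6_000125 (chromosome 10, 81192410 to 81193676) had 45.3, 46.2 and 42.3 CPM in stamen, against 0 CPM in leaf, at most 0.0423 CPM in root and 0.125 to 0.854 CPM in pistil. Stamen was at least 618-fold higher than leaf, taking 3 reads over the 3 leaf libraries as the floor. The level in pistil was 1.26% of that in stamen.

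The heat shock cognate 70 kDa gene CqNL-6_002438 (chromosome 16, 44803337 to 44806678) had 24.5, 23.9 and 25.7 CPM in stamen, against 0 CPM in leaf and pistil and at most 0.169 CPM in root, at least 342-fold higher than leaf and at least 566-fold higher than pistil. In pistil, the gene titled heat shock protein 1 (CqNL-6_017052, chromosome 5, 11186169 to 11191246), an HSP70, had 11.1, 12.5 and 7.90 CPM, against 0.995 to 1.90 CPM in leaf, at most 0.0847 CPM in root and 2.64 to 5.70 CPM in stamen (smallest log2 fold change 1.23, adjusted p = 0.000672). Without stamen replicate 2 that change was 0.99, just under the minimum. The mitochondrial HSP70 gene CqNL-6_050881 (chromosome 7, 72686262 to 72690782), whose kind drives import into mitochondria, had 4.63, 4.46 and 7.31 CPM in pistil, against at most 2.33 CPM in any other library (smallest log2 fold change 1.40, adjusted p = 0.000674). Pistil and the other tissues did not overlap for either gene.

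Some HSP70 genes were high in both root and stamen and so were highest in neither. They were named after their values were seen. CqNL-6_045480 had 102 to 138 CPM in root and 144 to 173 CPM in stamen, which did not differ past the threshold (log2 fold change of root over stamen -0.43, adjusted p = 0.221), against 7.32 to 30.1 CPM in leaf and 12.4 to 16.97 CPM in pistil. CqNL-6_048434 had 18.8 to 24.0 CPM in root and 22.3 to 31.5 CPM in stamen, against 0.613 to 1.13 CPM in leaf and 2.34 to 3.13 CPM in pistil. By total library size both were called highest in root, so their place between root and stamen depends on the scaling. HSP70-15, CqNL-6_007809, was read at 140 to 306 CPM in all 12 libraries.

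A further feature of the HSP70 class is its position. Members that lie less than 500 kb apart, in groups of at least 3, formed 2 arrays of 22 HSP70 genes each, on chromosome 16 (44486136 to 44806678) and on chromosome 5 (11099152 to 11492717), an array of 6 on chromosome 7 (51025336 to 51116553) and a group of 4 small heat shock proteins on chromosome 18 (3248992 to 3738715). The 50 HSP70 genes in arrays had 2536 reads over the 15 libraries, against 175239 reads for the 22 HSP70 genes outside them, and 24 of the 50 had no read, against 6 of the 22. Their deposited lengths were similar, with medians of 564 and 563.5 bases, and 32 of the 50 and 13 of the 22 were under 900 bases. Reads of near-identical copies could be split or dropped in counting, and the sources used here do not say how multiple matches were treated, so values of single array genes are uncertain.

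Within each array the reads were concentrated in few genes, and the tissue differed by gene. On chromosome 16, 7 of 22 genes had reads, with 690 in stamen, 122 in pistil and 8 in root, and with 225 in NaCl leaf against 22 in untreated leaf. CqNL-6_002438 alone held 501 of these 1067 reads, 488 of them in stamen. CqNL-6_002445, named after its values were seen, held 200 of the 225 reads in NaCl leaf and 7 in untreated leaf, with 0 in root and stamen and 1 in pistil. Its log2 fold change after salt was 4.66 ± 0.67 (adjusted p = 0.000568), at 6.17, 1.87 and 4.33 CPM in NaCl leaf, against 0.355, 0.0641 and 0.0643 CPM in untreated leaf, and it is a short model of 231 bases.

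On chromosome 5, 17 of 22 genes had reads and CqNL-6_017052 held 71.0% of the 1352, with 717 in pistil. CqNL-6_017043 and CqNL-6_017044, at the start of the array, had 79 and 87 reads in root and at most 4 in any other group. As a share of all HSP70 reads, the array genes made up 5.24 to 6.73% in stamen and 3.13 to 4.91% in pistil, against 0.633 to 0.758% in root, 0.57 to 1.12% in NaCl leaf and 0.125 to 0.196% in untreated leaf. This share is taken within a library and does not depend on the scaling, and it was higher in every flower library than in every leaf or root library.

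**Figure D4:**
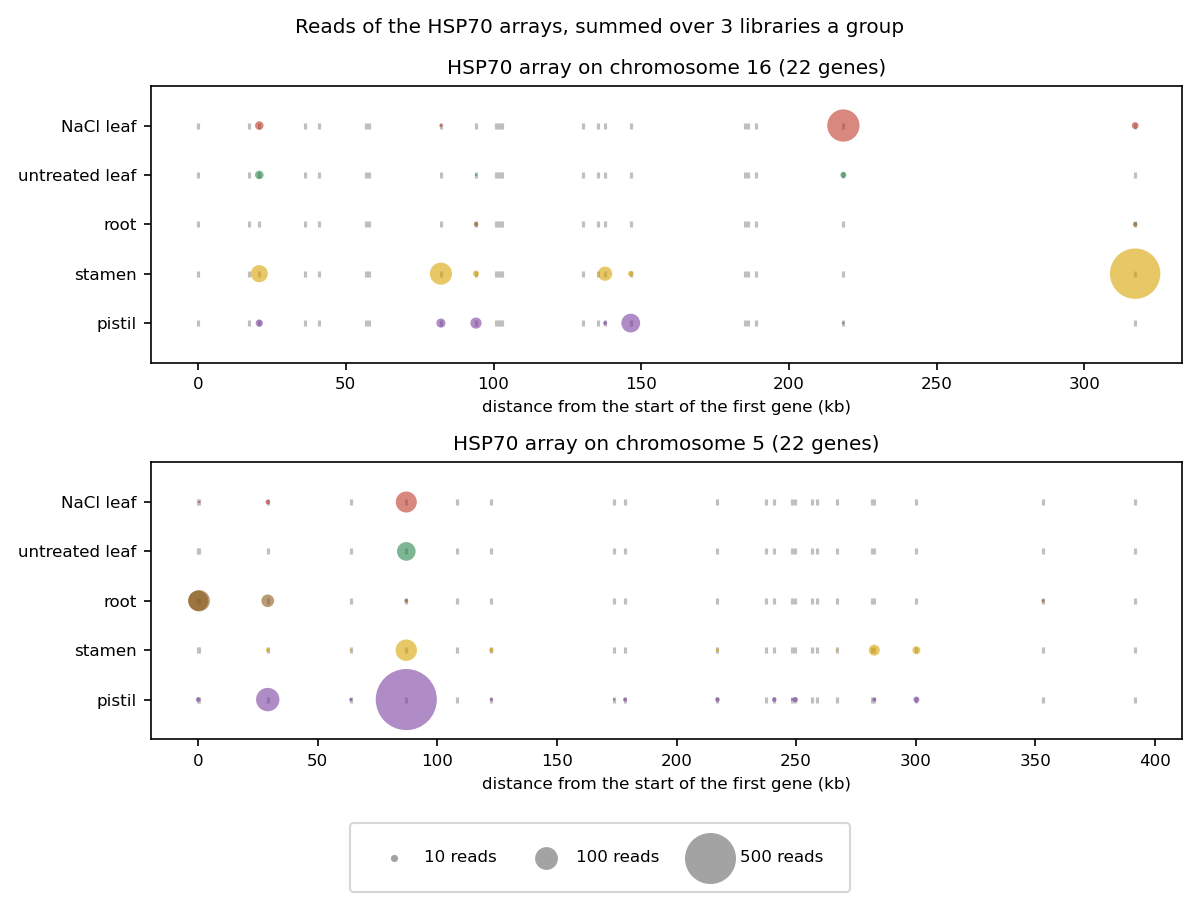
Reads of the HSP70 genes in the arrays on chromosome 16 (top) and chromosome 5 (bottom), by distance in kb from the start of the first gene, with circle area proportional to the reads summed over 3 libraries of a group and a grey tick at each of 22 genes in every group's row. The largest circles are CqNL-6_002438 in stamen (488 reads), CqNL-6_002445 in NaCl leaf (200 reads) and CqNL-6_017052 in pistil (717 reads), and 15 of the 22 genes on chromosome 16 and 5 of the 22 on chromosome 5 had no read in any group.

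Of 14 tested small heat shock proteins, root and stamen were highest for 3 each, pistil for 1 and leaf for 0. The counts for stamen and pistil were near the shares of all genes tested, 20% and 6.03%. The class I gene CqNL-6_053117 (chromosome 2, 51704541 to 51710277) had 178, 192 and 161 CPM in stamen, against at most 0.153 CPM in leaf, 0 CPM in root and 2.25 to 3.19 CPM in pistil. Stamen was at least 3707-fold higher than root, and the smallest log2 fold change, against pistil, was 5.999 (adjusted p = 2.29e-14). The level in pistil was 1.56% of that in stamen, beside 3.36% for the summed genes titled with pollen. Those genes summed to 870 to 1187 CPM in root, near their 902 to 1226 CPM in pistil. Their pistil level is therefore no measure of pollen there, and the part of pollen in the pistil value of CqNL-6_053117 was not tested. In the deposited FPKM values this gene made up 74.7% of all small heat shock protein FPKM in stamen on average.

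The 22.0 kDa class IV gene CqNL-6_002210 had 4.42, 9.53 and 3.52 CPM in stamen, against at most 0.0699 CPM in leaf, 1.26 to 3.26 CPM in root and 0.167 to 0.405 CPM in pistil. This call is less sure, since the smallest log2 fold change of 1.28 (adjusted p = 0.00699) was 0.61 (adjusted p = 0.203) without stamen replicate 2, 0.98 without root replicate 1 and -0.24 (adjusted p = 0.584) by total library size. In root, the 17.6 kDa class II gene CqNL-6_000852 (chromosome 10, 72155200 to 72156217) had 17.6, 26.2 and 36.7 CPM, against at most 0.352 CPM in leaf, 0 CPM in stamen and at most 0.0450 CPM in pistil. It was at least 177-fold higher in root than in stamen. The chloroplast gene CqNL-6_005239 (chromosome 2, 79375400 to 79376627) had 7.10, 6.52 and 5.94 CPM in root, against at most 0.774 CPM in leaf, 1.03 CPM in stamen and 1.02 CPM in pistil (smallest log2 fold change 3.02, adjusted p = 3.38e-06).

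The most read small heat shock protein in leaf, CqNL-6_010027, was not highest in 1 tissue. It had 36.4, 47.7 and 56.7 CPM in leaf, against 7.44 to 8.61 CPM in root, 18.1 to 47.2 CPM in stamen and 16.5 to 19.0 CPM in pistil. Leaf and stamen overlapped (log2 fold change 0.35, adjusted p = 0.171), with stamen replicate 3 well below the other stamen libraries. The gene titled heat shock protein binding protein, CqNL-6_008194 (chromosome 3, 16251737 to 16253860), had 3.71, 6.45 and 5.54 CPM in stamen, against 0 CPM in leaf and root and at most 0.135 CPM in pistil, at least 109.6-fold higher than root.

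Of 14 tested heat stress factors, root was highest for 6, leaf and pistil for 1 each and stamen for 0. Over all genes tested, root took 10.4%. The count for root ranged from 4 to 6 when single libraries were left out. HSF24, CqNL-6_008758, had 35.0, 32.1 and 38.1 CPM in root, against 0.383 to 1.27 CPM in leaf, 0.440 to 3.85 CPM in stamen and 4.10 to 6.72 CPM in pistil (smallest log2 fold change 2.67, adjusted p = 4.01e-08). It held 37.4% of the summed factor FPKM in root. C-1 gene CqNL-6_031328 had 23.0, 20.2 and 21.5 CPM in root, against 1.12 to 1.61 CPM in leaf, 0.293 to 0.713 CPM in stamen and 0.460 to 0.989 CPM in pistil (smallest log2 fold change 3.96, adjusted p = 7.91e-12). The other C-1 gene, CqNL-6_033852, had 20.3 to 24.8 CPM in root and 4.44 to 5.80 CPM in leaf.

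The A-3 gene CqNL-6_020670 (chromosome 13, 60216858 to 60221742) was the factor highest in leaf, with 16.5, 19.98 and 19.9 CPM there, against 0.775 to 1.35 CPM in root, 4.36 to 10.1 CPM in stamen and 5.77 to 9.37 CPM in pistil (smallest log2 fold change 1.31, adjusted p = 4.84e-05). By total library size the smallest change was 0.25 (adjusted p = 0.32). The A-7a gene CqNL-6_019300 (chromosome 14, 13327146 to 13329287) was highest in pistil, with 7.06, 7.16 and 7.15 CPM, against at most 2.99 CPM in any other library (smallest log2 fold change 1.66, adjusted p = 0.000124). The B-4 genes, whose Arabidopsis counterpart SCHIZORIZA acts in root patterning, were named after their values were seen and were shared by root and pistil. CqNL-6_015238 had 7.08 to 10.8 CPM in root and 9.49 to 11.9 CPM in pistil, against 4.67 to 5.98 CPM in leaf and at most 0.503 CPM in stamen.

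Quinoa carries a pair of subgenomes, and outside HSP70 there were 10 pairs of tested genes that shared class, title and KEGG term. All 10 lay on different chromosomes. The ratio within a pair was taken per length with 0.5 reads added, as a description with no test, and it does not depend on the scaling. It can depend on how reads that match both copies were counted, which the sources used here do not give. For HSP90 genes CqNL-6_006426 over CqNL-6_039279, the log2 ratio was -1.96 to -1.63 in stamen, where the copy on chromosome 10 was thus the more abundant one. It was 0.05 to 0.17 in pistil, -0.04 to -0.01 in root and -0.13 to -0.11 in untreated leaf. After salt it was 0.21 to 0.49, above all untreated leaf libraries. The HSP90-1 pair, CqNL-6_037236 over CqNL-6_044657, stood at -2.08 to -1.30 in NaCl leaf and -0.31 to -0.20 in untreated leaf.

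For the factors, A-3 (CqNL-6_020670 over CqNL-6_041006) had log2 ratios of 2.47 to 3.16 in stamen and 0.96 to 2.72 in root, where CqNL-6_041006 had at most 0.362 CPM. The ratio was -0.66 to -0.39 in pistil and -0.01 to 0.33 in untreated leaf, and after salt it was -0.96 to -0.33, below all untreated leaf libraries. The B-4 pair (CqNL-6_015238 over CqNL-6_034348) stood at 2.09 to 2.70 in NaCl leaf and 2.46 to 2.57 in untreated leaf, against -0.23 to 0.05 in root. C-1 genes CqNL-6_031328 over CqNL-6_033852 were near even in root, at -0.27 to -0.08, and stood at -1.18 to -0.25 in NaCl leaf and -2.41 to -1.70 in untreated leaf. Ratios in stamen rest on few reads for all factor pairs, those of class A included. All factors together had 199, 102 and 89 reads in the stamen libraries.

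**Figure D5:**
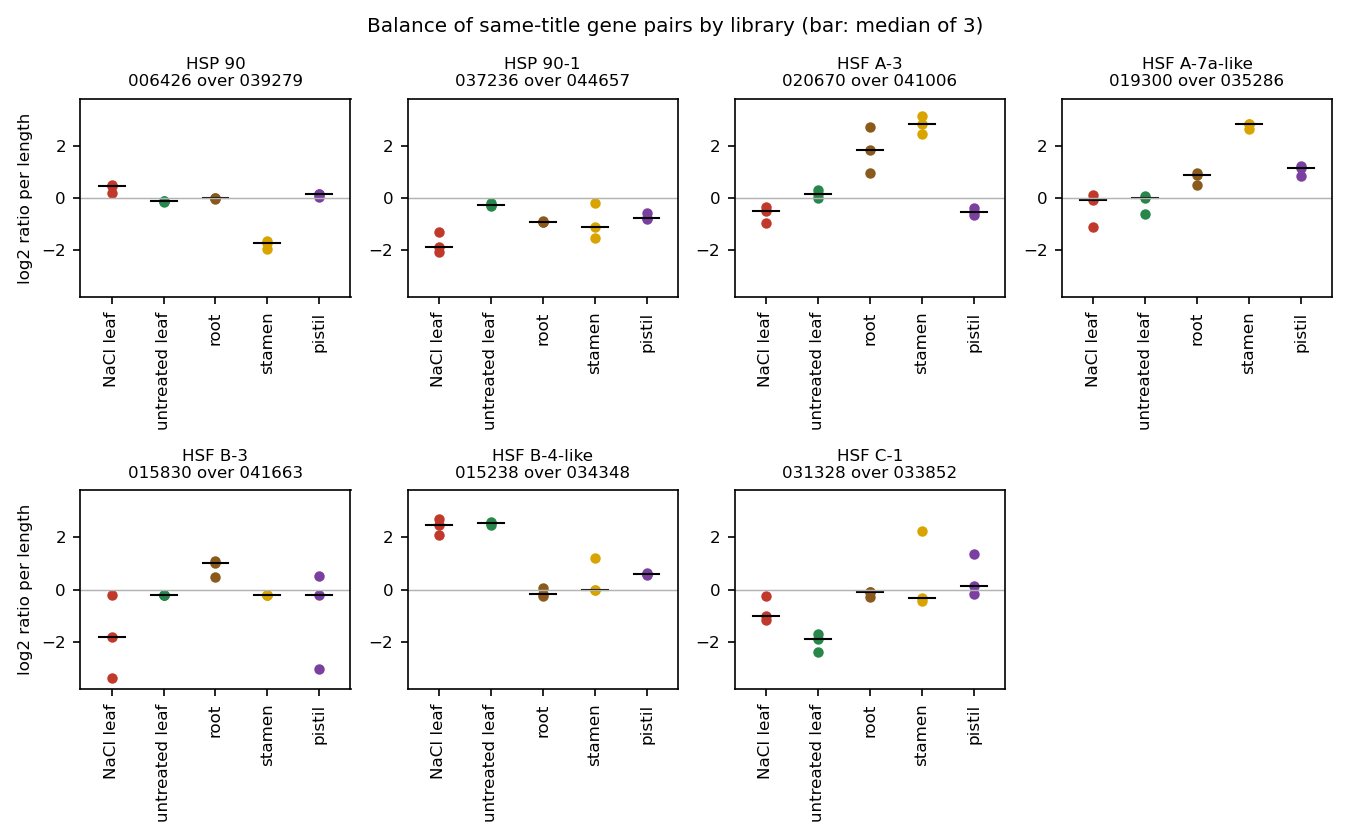
Log2 ratio of the 2 genes of each same-title HSP90 and factor pair, per length, in each library of NaCl leaf, untreated leaf, root, stamen and pistil, with a bar at the median of 3 and a line at an equal level. The HSP90 pair (top left) leaves the line in stamen, at -1.96 to -1.63, and the HSP90-1 pair stands lower in NaCl leaf (-2.08 to -1.30) than in untreated leaf (-0.31 to -0.20).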

How the data were processed

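RNA-seq of 15 libraries, 3 each of 5 groups, was used. The authors filtered paired reads of 150 bp and mapped these with HISAT2 to the genome of NL-6, where the submitters' processing notes name release 2.1.0. HTSeq then gave the deposited counts, whole reads for each gene with no normalization. FPKM was also deposited by the authors, made from these counts, the gene length and the library total, and FPKM was used here only for shares within a class. Strand setting and handling of multiple matches in HTSeq were not given in the sources used here. Titles and KEGG terms are those of the deposited table, and 2 members were placed in a class by KEGG term.

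Counts were filtered with filterByExpr, scaled by TMM and tested with the quasi-likelihood test of edgeR 4.0.16 (R 4.3.3) with Benjamini-Hochberg adjustment over all genes tested, on the 6 leaf libraries for salt and on the 12 untreated libraries for tissues. The study's own test was DESeq, and DESeq2 1.42.0 served as an alternative. Other alternatives were other scalings, no read filter, all 15 libraries in 1 fit, the replicate number as a block and leaving out each replicate. Tests were also run on simulated data in which the groups shared the same profile apart from a small set of changed genes. The tissues differ in far more genes, so that run does not show how tissue calls hold under such shifts. Tables and figures were made with Python 3.11.15, pandas 2.3.3, numpy 2.4.6 and matplotlib.

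Named genes were, per class, up to 4 risers and 4 fallers of at least 5 CPM and the most read gene for salt, and up to 2 genes of at least 5 CPM and the most read gene for each tissue, and in the other lists the called gene with the smallest p in each direction, while others are marked as named after their values were seen. The members and lists were chosen with earlier results of these data known. Intervals cover counting and replicate spread only, and a floor of 3 reads over 3 libraries was used where a group had none.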

Additional observations from a re-analysis of the deposited data

How the results depend on the processing

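Deviations of same-numbered replicates had correlations of -0.0863 to 0.0781 over 30 pairs, and those of different-numbered ones -0.0746 to 0.1003. Most of these pairs join different organs, where the numbers need not pair samples. For NaCl leaf with untreated leaf the values were -0.0863, 0.00911 and 0.0016 for replicates 1, 2 and 3. No pairing was seen in these values, and the numbers were not used as pairs. The replicate block kept all 23 salt calls and all 35 tissue calls. Of the 23 salt calls 15 held in all 6 fits with 1 leaf library left out, and 22 in DESeq2. Over these leave-outs the count ranged from 10 to 15 for all risers, 6 to 9 for all fallers, 3 to 5 and 1 to 2 for HSP70 risers and fallers, 0 to 1 for small heat shock protein fallers and 2 to 5 and 0 to 1 for factor risers and fallers. With total library size there were 3 HSP90 risers and 4 fallers and 1 HSP70 faller, and there were 5 factor risers and 0 factor fallers. Requiring an absolute log2 value of 1 or more, there were 2 small heat shock protein risers, 1 HSP70 faller and 0 factor fallers. The direction of CqNL-6_006426 turned with total library size (0.18, adjusted p = 0.29) and over leave-outs (-0.17 to 0.046, highest without NaCl leaf replicate 1), and that of CqNL-6_010027 likewise (0.20, adjusted p = 0.407, and -0.27 to 0.11). The causes were not tested.

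For tissues, leave-outs gave 5 to 8 genes highest in pistil, 3 to 6 of them HSP70. They gave 3 to 5 small heat shock proteins and 4 to 6 factors highest in root. Total library size gave 2 small heat shock proteins and 2 factors highest in pistil, 5 HSP70 genes highest in root, 0 HSP90 genes highest in stamen and 0 factors highest in leaf, and it turned CqNL-6_002210 (-0.24, adjusted p = 0.584) and CqNL-6_054492 (-0.49, adjusted p = 0.0772). Without a read filter 9 HSP70 genes were highest in stamen. Without a minimum fold change 1 small heat shock protein and 2 factors were highest in leaf and 4 HSP90 genes in root. Of the 50 array genes 24 had no read at this depth, and the cause was not tested.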
